A study of Mus musculus with 9 samples.

Results

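The odorant receptor (OR) genes described here lie on mouse chromosome 17 beside the genes of the major histocompatibility complex (MHC). They were chosen by name alone, as every gene in the deposited tables called Olfr90 to Olfr137, and there are 47 of them among 1248 Olfr genes and 23607 genes in all. Odorants are sensed by ORs in the cilia of olfactory sensory neurons (OSNs), and a mature OSN as a rule makes a single kind of OR. Genes of one OR cluster arose largely by duplication, so neighbours are often close in sequence. The MHC-linked ORs are class II ORs, the class that makes up most of the mammalian repertoire, and their position beside MHC class I genes has long drawn interest because MHC type influences body odor.

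The data are RNAseq counts from immunoprecipitation of phosphorylated ribosomal protein S6 (pS6-IP) from the olfactory epithelium (OE) of 9 C57BL/6 mice. S6 is phosphorylated when an OSN fires, so the mRNA of an OR whose neurons respond to an odor is pulled down in larger amounts. The groups compared were 3 control mice given distilled water, 3 mice exposed to 1% heptanal and 3 mice exposed to 100% heptanal, each for 1 hr, to ask which ORs respond to this straight-chain aldehyde. Each group has 1 mouse of postnatal day (PND) 22, 1 of PND 21 and 1 of PND 18, and the methods describe the mice of a replication as littermates of the same sex, so the 3 ages are called litters below. The extracts are bulk OE, in which fewer responding neurons and less OR mRNA per neuron cannot be told apart.

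All 47 genes were placed on chromosome 17 of GRCm38 (the build called mm10) by the GENCODE annotation, between positions 37083871 and 38336643, a stretch of 1252.8 kb. There were 25 on the plus strand and 22 on the minus strand. Another 11 Olfr genes of other numbers lie inside the same stretch, and they were counted with the other ORs. All of them carry a pseudogene suffix except Olfr138 and Olfr761. The non-OR neighbour Gabbr1, which codes for a GABA-B receptor subunit, had 58 to 289 counts per mouse, and the MHC class I genes H2-M2, H2-M3 and H2-M5 had at most 13.7. The 3 members Olfr104-ps, Olfr105-ps and Olfr106-ps carry a pseudogene suffix.

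Sequence likeness within the cluster bears on the counts, because a read that matches 2 genes has to be divided between them. RefSeq gave a coding sequence for 44 members, between 918 and 1161 bases long, and for 35 of these the closest Olfr coding sequence was another member. The identity to the closest Olfr gene had a median of 91.1% and ran from 48.2% to 98.1%. Among the 26 members at 90% identity or more, of which 24 had counts, the median share of counts that came from reads mapping to several places was 28.1%, against 1.77% among the other 17 members with counts. These shares describe the members and were not tested.

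The following 3 pairs show what this means base by base, with GRCm38 sequence written 5′ to 3′ on the coding strand and capitals at the positions that differ within a pair. Olfr117 and Olfr130 lie on opposite strands and differ at 27 of 954 coding bases. Their first 60 coding bases are at chr17:37660272-37660331 on the minus strand and chr17:38067173-38067232 on the plus strand, and differ at 1 position.
Olfr117: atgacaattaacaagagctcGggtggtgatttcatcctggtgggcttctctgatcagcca
Olfr130: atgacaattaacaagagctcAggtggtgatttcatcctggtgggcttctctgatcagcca
Olfr110 and Olfr111, next to each other among the members and both on the plus strand, differ at 18 of 954 coding bases. The 60-base window with the most differences, coding bases 817 to 876, holds 5 of them, at chr17:37499469-37499528 and chr17:37530795-37530854.
Olfr110: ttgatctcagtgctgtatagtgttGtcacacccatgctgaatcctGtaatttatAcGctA
Olfr111: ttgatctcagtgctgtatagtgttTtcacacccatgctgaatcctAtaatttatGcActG
Olfr90 and Olfr92, both on the minus strand, are 86.8% identical. Their first 60 coding bases, at chr17:37086104-37086163 and chr17:37111921-37111980, differ at 5 positions.
Olfr90: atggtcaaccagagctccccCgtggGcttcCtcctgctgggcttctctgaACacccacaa
Olfr92: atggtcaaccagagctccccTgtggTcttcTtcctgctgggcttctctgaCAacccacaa

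Among the most counted members, Olfr124 and Olfr131 have no close relative, and all of their counts came from reads that mapped to 1 place. Olfr124 is 65.9% identical to its closest Olfr gene and Olfr131 is 61.2% identical to its own. Their first 60 coding bases are shown with the start codon in capitals, at chr17:37805147-37805206 on the plus strand and chr17:38082917-38082976 on the minus strand.
Olfr124: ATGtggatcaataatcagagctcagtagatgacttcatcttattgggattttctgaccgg
Olfr131: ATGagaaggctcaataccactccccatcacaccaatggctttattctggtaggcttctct

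Reads that mapped to several places supplied 3.40% to 9.54% of the members' summed counts per mouse and 9.89% to 14.2% of those of the other ORs. Olfr92, Olfr113 and Olfr118 owed 63.4%, 61.2% and 52.3% of their counts to such reads, and Olfr108 owed 100% of a summed 0.12. Their values are uncertain for that reason. Olfr110 and Olfr111, at 45.2% and 43.6%, are uncertain in the same way, whereas Olfr117 and Olfr130 had only 4.47% and 2.37% in spite of their likeness.

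A count of at least 1 was found in at least 1 mouse for 43 of the 47 members (91.5%) and for 904 of the 1201 other ORs (75.3%). A pseudogene suffix was carried by 3 of the 47 members and by 148 of the 1201 other ORs. Detection was not compared without these genes. Olfr103, Olfr114 and Olfr135 were at 0 in all 9 mice, which allows up to 3 counts over all libraries, or 0.0435 CPM (read counts scaled to a common library size). Olfr108 stayed below 1 count in every mouse. The 7 members Olfr90, Olfr92, Olfr93, Olfr109, Olfr117, Olfr131 and Olfr132 were detected in all 9 mice.

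The number of members detected differed more between litters than between groups. In the PND 22 litter 11 members were detected in the control mouse, 11 at 1% heptanal and 17 at 100% heptanal. In the PND 21 litter the numbers were 34, 22 and 33, and in the PND 18 litter they were 33, 37 and 41. The other ORs were also detected less often at PND 22, with 280, 257 and 447 genes against 429 to 680 in the remaining mice, so the drop was not confined to the chromosome 17 cluster. Taking the 3 mice of a litter together, 87.2% of members and 68.7% of other ORs were detected at PND 18, 85.1% and 66.4% at PND 21, and 44.7% and 43.3% at PND 22.

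**Figure D1:**
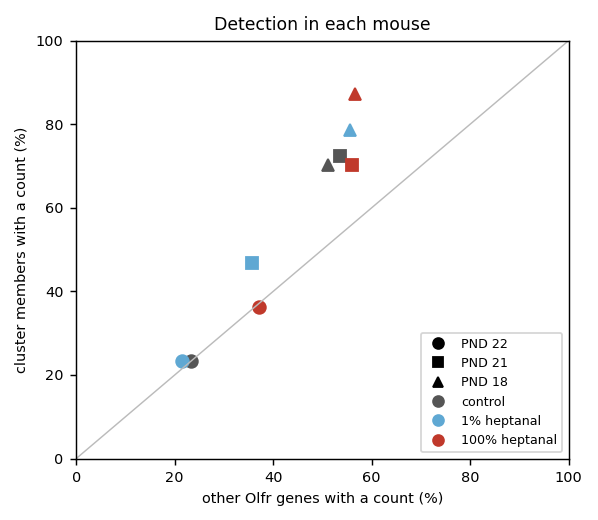
Percentage of the 47 members with a count of at least 1 (y axis) against that of the 1201 other ORs (x axis), 1 point per mouse, with color for the group, marker shape for the litter and a grey line of equality. The 3 mice of PND 22 lie close to the line, and the 6 other mice lie above it, with members detected at 46.8% to 87.2%.

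As a mean over the 3 mice of a group, 55.3% ± 27.7 (SD) of the members were detected in controls. The mean was 49.6% ± 27.8 (SD) after 1% heptanal, and after 100% heptanal it was 64.5% ± 26.0 (SD). The difference from controls was 9.22 percentage points at 100% heptanal (two-sided exact permutation p = 0.7) and -5.67 at 1% heptanal (exact permutation p = 1), where 3 mice against 3 cannot go below 0.1. After thinning every mouse to the 10220 OR counts of the smallest library, the difference at 100% heptanal was 3.97 percentage points (exact permutation p = 0.7). The 3 groups overlapped in every version.

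Members took a modest part of all OR counts. In the controls of PND 22, 21 and 18 they made up 2.54% (95% Wilson interval 2.28 to 2.83), 5.56% (5.34 to 5.79) and 7.42% (7.11 to 7.74) of the OR counts of the mouse. At 1% heptanal the shares were 5.28% (4.87 to 5.73), 4.72% (4.46 to 5.0) and 8.36% (8.12 to 8.6), and at 100% heptanal they were 4.0% (3.83 to 4.18), 6.78% (6.59 to 6.98) and 6.91% (6.72 to 7.11). These intervals cover counting error only and are far narrower than the spread between mice. The mean share was 5.17% ± 2.46 (SD, n = 3) for controls, and the 100% mice had 5.90% ± 1.64 (SD, n = 3), a difference of 0.726 percentage points (two-sided exact permutation p = 0.7). The 1% mice had 6.12% ± 1.96 (SD, n = 3), a difference of 0.948 percentage points (exact permutation p = 0.6). Without the PND 22 control mouse, whose share was the lowest of all, both differences turned negative, to -0.59 and -0.368. That leaves the groups unequal in litters. With the whole PND 22 litter left out both stayed above 0, at 0.359 for 100% and 0.0511 for 1% heptanal.

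A few genes held most of these counts. Olfr124, Olfr117 and Olfr131 together had 56.1% of the members' counts over the 9 mice, while the 25 members with too few counts for testing had 4.53%. Per kb of GENCODE exon sequence, the highest mean levels were those of Olfr131 (24.5 CPM per kb), Olfr117 (17.4), Olfr124 (12.5), Olfr90 (7.61) and Olfr132 (6.56). The authors counted on their own extended OR models, so these lengths are approximate. The ranges of Olfr131, Olfr117 and Olfr124 over the mice overlapped, and their order is not settled.

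**Figure D2:**
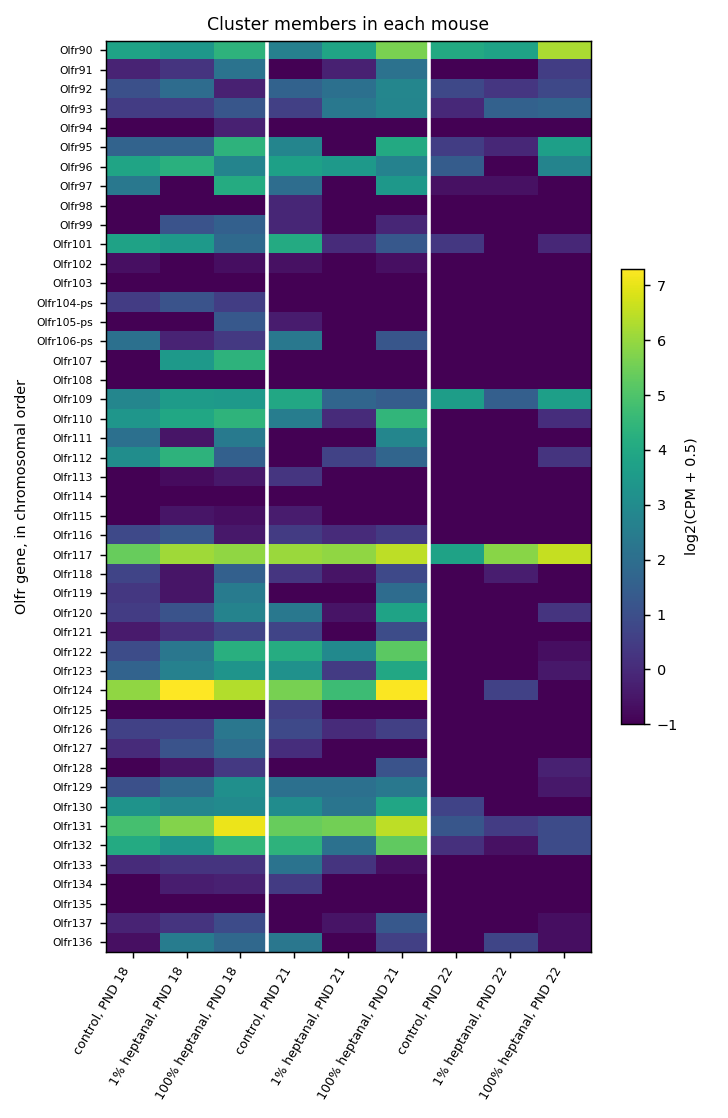
Level of each member in each mouse as log2(CPM + 0.5), with genes in chromosomal order from top to bottom and mice grouped by litter from left to right (PND 18, 21 and 22, each with control, 1% and 100% heptanal). In the PND 22 litter Olfr90, Olfr109 and Olfr117 keep levels of the same order as in the other litters, while Olfr124, Olfr131 and Olfr132 are at or near the bottom of the scale.

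For the comparison of groups, 22 members (46.8% of the cluster) and 426 other ORs (35.5%) had enough counts for edgeR's default filter, within 14930 genes tested. The filter keeps genes with enough counts in as few as 3 mice, so a member high in 1 group only could pass through that group. At 100% heptanal 0 of the 22 members passed an adjusted p of 0.05 in edgeR's quasi-likelihood test, and over all genes 2 passed, which is 0.0134% of those tested, with 0 ORs among them. An unadjusted p below 0.05 was reached by 2 members in the higher direction and by 0 in the lower, where 58 of the 426 other ORs and 3.01% of all genes tested were higher at that level. With the litter as a replicate block 0 of the 22 passed as well, against 8 of the 426 other ORs and 0.322% of all genes, all of them higher. DESeq2 without the block called 0 members and 18 other ORs.

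Most fitted differences at 100% heptanal were positive. Of the 22 members 16 lay above 0 on the log2 scale, with a median of 1.12, against a median of 0.91 over the other ORs and -0.03 over all genes tested. Of the 426 other ORs 315 lay above 0, and 46.8% of all genes tested did. On the scale of 5 mature OSN markers the medians were 0.27 for members and 0.22 for other ORs, and with TMM factors from the ORs alone they were 0.21 and -0.01, with 13 of the 22 members above 0 in both cases. Of the 426 other ORs 236 lay above 0 with the OSN markers and 211 with the ORs. Under these scalings the median over all genes tested was -0.89 and -1.14. All 3 mice lay above all 3 controls for 3 of the 22 members (13.6%), for 87 of the 426 other ORs (20.4%) and for 5.96% of all genes tested.

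The mature OSN markers moved with the same groups. The summed level of Omp, Adcy3, Ano2, Cnga2 and Gnal was 4237 to 8713 CPM in controls and 6154 to 8480 CPM at 1% heptanal. It was 10558 to 14891 CPM at 100% heptanal, so the 100% mice did not overlap the controls. Omp made up most of this sum, with means of 4757 CPM in controls and 9976 CPM at 100% heptanal. The log2 fold changes at 100% heptanal were 0.289 ± 0.312 for Adcy3, 0.496 ± 0.355 for Ano2, 1.05 ± 0.78 for Cnga2 and 0.724 ± 0.345 for Gnal (SE). Of the 16 genes of the odor transduction pathway and receptor transport, all 16 were fitted above 0 at 100% heptanal (median log2 fold change 0.59), and 0 passed the test without the replicate block. With the block 2 rose, namely Omp, a cytoplasmic protein of mature OSNs (log2 fold change 1.07 ± 0.30 without the block, adjusted p = 0.0311 with it), and Gng13, a G protein gamma subunit of OSN cilia (1.58 ± 0.60, adjusted p = 0.023 with the block). Sustentacular markers summed to 896 to 1386 CPM in controls and 1704 to 2061 CPM at 100% heptanal, also without overlap. The part of these markers in the members' differences was not tested beyond the marker scaling above.

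Olfr90, the first gene of the cluster, had the lowest unadjusted p of the members at 100% heptanal. Its level was 16.1, 5.64 and 13.7 CPM in the controls of PND 22, 21 and 18, and 13.7, 14.1 and 10.04 CPM at 1% heptanal. It was 75.7, 49.1 and 20.4 CPM at 100% heptanal. Each mouse at 100% heptanal was above all controls, and the 1% mice lay within the range of the controls. The log2 fold change at 100% heptanal was 2.03 ± 0.53 (SE), with an adjusted p of 0.734 in edgeR's quasi-likelihood test without the block and 0.148 with it (log2 fold change 1.94 ± 0.44). With the block and adjustment over the ORs alone the adjusted p was 0.0335, with DESeq2 and the block it was 8.57e-04, and with edgeR's likelihood ratio test and the block it was 0.00384. The same 3 fits called 8.93% of the 448 ORs, and 1.52% and 1.67% of all genes tested, higher. Among the 426 other ORs they called 39, 50 and 59 higher. Olfr90 was the only member called higher at 100% than in controls in any of the fits made.

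Another pair of members, Olfr95 and Olfr93, separated the 100% mice from the controls in the same way. Olfr95, with no close relative at 57.7% identity and 0% of shared reads, was at 0.929, 6.34 and 2.65 CPM in controls, at 0.442, 0 and 2.66 CPM at 1% heptanal and at 12.3, 15.99 and 20.2 CPM at 100% heptanal. Its log2 fold change was 2.28 ± 1.03 (SE) without the block and 2.42 ± 0.80 with it, and the adjusted p was 0.346 with the block. Olfr93 was at 0.465, 0.986 and 0.885 CPM in controls and at 2.74, 6.31 and 1.82 CPM at 100% heptanal. It was also at 2.51, 4.52 and 0.886 CPM at 1% heptanal. The values 2.51 and 4.52 CPM lay above the littermate controls, whereas 0.886 CPM was level with the 0.885 CPM of its littermate control. The log2 fold changes of Olfr93 were 2.19 ± 0.79 at 100% and 1.72 ± 0.78 at 1% heptanal (SE), neither past the threshold.

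Olfr117, the most counted member besides Olfr124, was high in every group. Its level was 13.2, 65.5 and 41.1 CPM in controls, 56.0, 60.3 and 69.6 CPM at 1% heptanal and 95.3, 88.9 and 60.1 CPM at 100% heptanal. At 100% heptanal it was above the littermate control in 3 of 3 litters, although the groups overlapped. The log2 fold change was 1.03 ± 0.48 (SE) over the 3 litters and 0.48 with the litter of PND 22 left out, so the size rests on the low control of that litter. Its near copy Olfr130 was at 1.08, 7.75 and 9.23 CPM in controls, 0, 4.17 and 6.50 CPM at 1% heptanal and 0, 14.6 and 7.40 CPM at 100% heptanal, and was thus near 0 at PND 22 where Olfr117 was not.

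**Figure D3:**
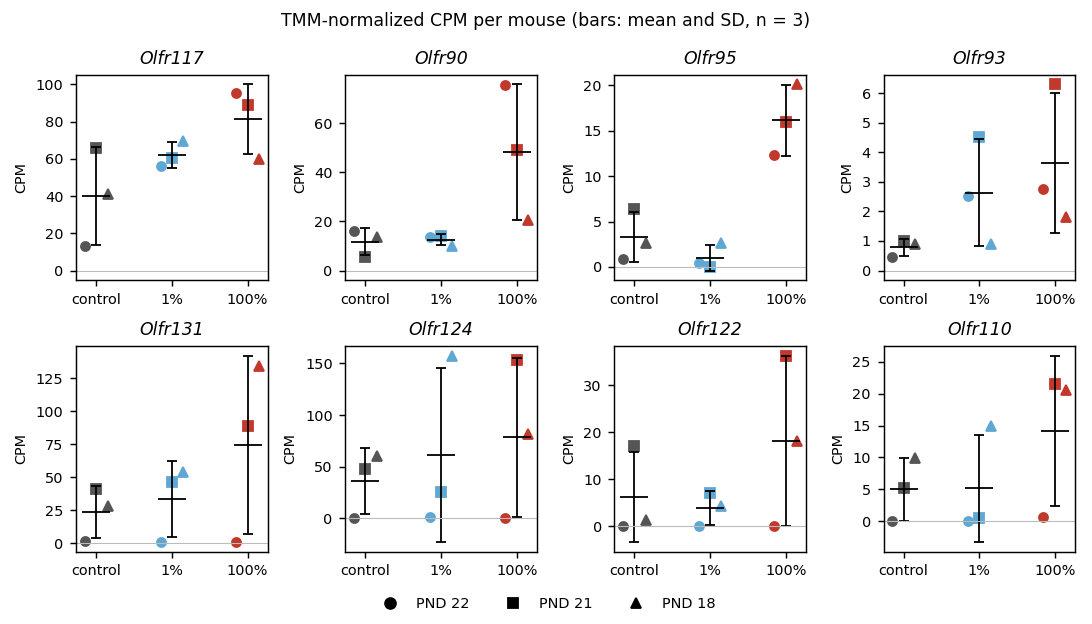
TMM-normalized CPM of 8 members in each mouse (linear axes, each with its own range), by group on the x axis, with marker shape for the litter and black bars for the mean and SD of the 3 mice. In the upper row Olfr90, Olfr95 and Olfr93 have all 100% mice above all controls, and in the lower row Olfr131, Olfr124, Olfr122 and Olfr110 are at or near 0 in the PND 22 mice of every group.

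Several members were near 0 in the PND 22 litter and had their higher values at 100% heptanal in the other litters. Olfr131 had 1.86, 41.0 and 28.6 CPM in the controls, and the 100% mice had 1.37, 88.9 and 134 CPM. At 1% heptanal it was at 0.885, 46.4 and 53.9 CPM. Its log2 fold change at 100% heptanal was 1.65 ± 1.56 (SE) without the block, 1.32 ± 0.38 with it (adjusted p = 0.247) and 1.65 with the PND 22 litter left out and the block (adjusted p = 0.184). Olfr122 was at 0, 17.2 and 1.39 CPM in controls and at 0.114, 36.3 and 18.2 CPM at 100% heptanal, with a log2 fold change of 2.05 ± 0.63 with the block (adjusted p = 0.295). Olfr110 went from 0, 5.21 and 9.86 CPM to 0.572, 21.5 and 20.5 CPM, and its near copy Olfr111 from 0, 0 and 3.67 CPM to 0, 6.45 and 4.78 CPM, with reads shared between both.

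Olfr124 had the largest standard error of the 22. It was at 0, 47.6 and 60.4 CPM in controls, 1.03, 25.2 and 158 CPM at 1% heptanal and 0, 154 and 81.5 CPM at 100% heptanal. The groups overlapped throughout, and the log2 fold change at 100% heptanal was 1.12 ± 2.02 (SE). Olfr132 was at 0.619, 20.2 and 16.6 CPM in controls, at 0.147, 3.82 and 9.74 CPM at 1% heptanal, and at 1.37, 38.4 and 22.1 CPM at 100% heptanal. It was thus below the littermate control in all 3 litters at 1% and above it in all 3 at 100%. At PND 22 this rested on 4 counts in the control, 1 at 1% and 12 at 100% heptanal. Olfr120, Olfr123 and Olfr129 were likewise above the littermate control in 3 of 3 litters at 100%. At PND 22 this rested on few counts, with 0 in the control against 5.52 of Olfr120, 2.0 of Olfr123 and 2.31 of Olfr129. For Olfr123 and Olfr129 these are under 3 counts, so that litter cannot show a difference. The share of other ORs above the littermate control in 3 of 3 litters is not given. The controls had 0 to 4.51 CPM of Olfr120, 0 to 8.74 CPM of Olfr123 and 0 to 3.66 CPM of Olfr129, and the 100% mice had 0.686 to 13.5, 0.229 to 15.3 and 0.229 to 8.2 CPM.

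A fitted difference below 0 was found for 6 members at 100% heptanal. Olfr101 had the lowest, at 0.774, 16.2 and 13.1 CPM in controls against 0.457, 1.96 and 3.08 CPM at 100% heptanal. It was below the littermate control in all 3 litters. At PND 22 Olfr101 had only 5 counts in the control and 4 at 100%, so its difference rests on the other litters. Its log2 fold change was -2.45 ± 1.58 (SE) without the block and -2.33 ± 0.95 with it (adjusted p = 0.441). With the block it passed the threshold under both other scalings, which lower all values, at -3.02 with the OSN markers (adjusted p = 0.0208) and -3.25 with the ORs alone (adjusted p = 0.00135). Olfr109 was called as well in those fits. So were 17.4% of all genes tested with the OSN markers and 51.4% with the ORs, all lower, which is a larger share than 2 of 22 members. Of the 426 other ORs, 18 were called lower with the OSN markers, a smaller share than 2 of 22. With the ORs 44 were, a slightly larger one. Olfr109 had 11.8, 15.2 and 6.45 CPM in the controls and 12.3, 2.24 and 10.5 CPM at 100% heptanal, lower than the littermate control at PND 21 alone. Olfr96 had 2.17, 12.7 and 13.9 CPM in the controls, and 6.29, 5.89 and 6.26 CPM after 100% heptanal. The controls had 0 to 4.51 CPM of Olfr106-ps, 0 to 7.84 CPM of Olfr112 and 0 to 4.37 CPM of Olfr136, and the 100% mice had 0 to 1.82, 0.686 to 2.8 and 0.114 to 2.96 CPM. Olfr92, fitted above 0, had 1.24 to 2.54 CPM in the controls, and the 100% mice lay on both sides of them, at 0.342 to 6.45 CPM.

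**Figure D4:**
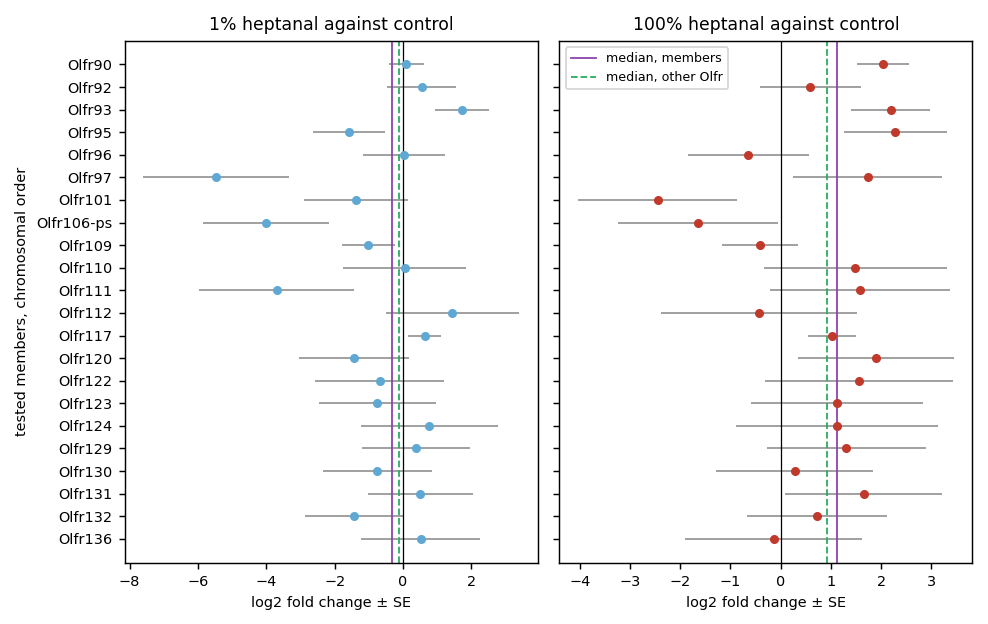
Log2 fold change against controls with its SE for the 22 tested members in chromosomal order, at 1% heptanal (left) and 100% heptanal (right), from the fit without the replicate block. Vertical lines mark 0, the median of the members (-0.33 and 1.12) and the median of the other ORs (-0.11 and 0.91). The standard errors of most members cross 0.

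At 1% heptanal 0 of the 22 members passed the threshold in either fit, as did 0% of the 14930 genes tested. Members above and below 0 were equal in number, 11 each, with a median log2 fold change of -0.33 against -0.11 for the other ORs and -0.02 for all genes tested. At an unadjusted p below 0.05 in edgeR's quasi-likelihood test 0 members were higher and 1 was lower, Olfr97. Its rounded counts summed to 61 over the 3 controls and to 1 over the 3 mice of the 1% group, a ratio of 0.0155 with a counting interval of 4e-04 to 0.0897. By mouse it was at 0.155, 3.38 and 4.55 CPM in controls, 0.147, 0 and 0 CPM at 1% heptanal and 0, 10.4 and 16.7 CPM at 100% heptanal. With edgeR's likelihood ratio test and the block, Olfr97 was the 1 member called lower at 1% heptanal (adjusted p = 0.00159), as were 5 of the 426 other ORs and 0.0737% of all genes tested. The 3 mice at 1% heptanal lay above all controls for 0 of the 22 members, against 2.28% of all genes tested. The control counts of Olfr106-ps summed to 61 and those of the 1% group to 4. For Olfr111 the sums were 29 and 2, but all 29 came from 1 control mouse.

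Between 100% and 1% heptanal 0 of the 22 members passed the threshold without the block, against 0.0134% of all genes tested. With the block 0 passed as well, against 0.0804% of all genes in the higher direction. With the block and adjustment over the ORs alone 5 members were higher at 100% than at 1%, namely Olfr90, Olfr95, Olfr97, Olfr122 and Olfr132, as were 59 of the 426 other ORs and 14.3% of all ORs tested. Olfr95 had the clearest separation, with 0 to 2.66 CPM at 1% against 12.3 to 20.2 CPM at 100% heptanal, and a log2 difference of 4.06 ± 0.88 (SE) with the block (adjusted p = 0.205 over all genes and 0.0232 over the ORs). Olfr132 differed by 2.24 ± 0.46 with the block (adjusted p = 0.178 over all genes and 0.0192 over the ORs). For scale, 2 ORs outside the cluster, Olfr544 and Olfr1362, were named as reference points and do not stand for the other ORs. Their log2 fold changes at 100% heptanal against controls were 2.75 ± 0.44 and 2.64 ± 0.43. These were larger than that of any member, with smaller errors than most members had. The median over the 426 other ORs was 0.91, and the share of them as high as these 2 is not given.

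More members differed between litters than between groups. In the fit with the replicate block, 11 of the 22 members differed between the 3 litters at an adjusted p below 0.05, against 120 of the 426 other ORs and 27% of all genes tested. All 11 had their lowest level in the PND 22 litter. The median log2 difference of PND 22 from PND 18 was -4.70 for members and -2.25 for the other ORs, or -4.46 and -2.23 with the genes at 0 in a litter set at 3 counts over that litter. In the PND 22 litter 14 of the 22 members (63.6%) lay below 0.1 of their mean over the other litters, and 158 of the 426 other ORs (37.1%) did so.

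The 11 members that differed between litters were Olfr101, Olfr110, Olfr112, Olfr120, Olfr122, Olfr123, Olfr124, Olfr129, Olfr130, Olfr131 and Olfr132, and 0 of the 6 tested members from Olfr90 to Olfr97 were among them. Averaged over the 3 mice of a litter, Olfr124 was at 99.8 CPM at PND 18, 75.5 CPM at PND 21 and 0.344 CPM at PND 22 (adjusted p of the litter term 0.00257). Olfr131 was at 72.2, 58.8 and 1.37 CPM (adjusted p = 6.38e-04), Olfr132 at 16.1, 20.8 and 0.713 CPM, and Olfr122 at 8.01, 20.2 and 0.038 CPM. In contrast Olfr117, which lies between Olfr112 and Olfr120, was at 56.9, 71.6 and 54.8 CPM, Olfr109 at 9.38, 6.75 and 8.82 CPM, and Olfr90 at 14.7, 22.9 and 35.2 CPM. The split at Olfr97 was chosen after these values were seen and was not tested. Olfr97 itself was at 7.10, 4.59 and 0.101 CPM, with an adjusted p of 0.0501.

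**Figure D5:**
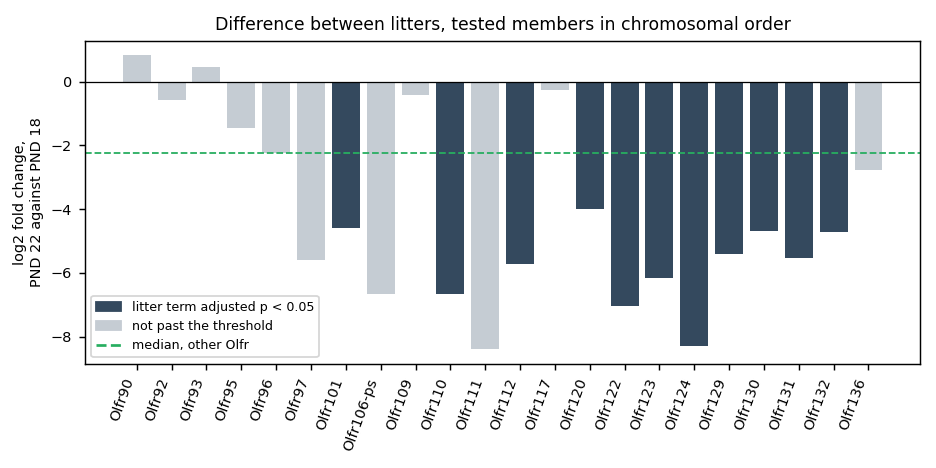
Log2 fold change of the PND 22 litter against the PND 18 litter for the 22 tested members in chromosomal order, from the fit with the replicate block. Dark bars mark the 11 members whose litter term passed an adjusted p of 0.05, and the dashed line is the median of the other ORs (-2.25). Olfr90, Olfr92, Olfr93, Olfr109 and Olfr117 stay near 0 while most genes from Olfr101 on are far below it.

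Age, litter and any other difference of the replications cannot be told apart. The summed mature OSN markers did not follow the members, at 5870, 6859 and 11774 CPM in the PND 22 mice, 8713, 8480 and 14891 CPM at PND 21 and 4237, 6154 and 10558 CPM at PND 18, in the order control, 1% and 100% heptanal. Red blood cell markers were lowest at PND 18, at 1031 to 1677 CPM against 5742 to 12390 CPM in the other mice. Their part in the litter differences was not tested.

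The 25 members that failed the filter summed to 49.7 CPM in the PND 18 mouse at 100% heptanal and to 0.046 to 22.6 CPM in the other 8 mice. Olfr107 was the largest, with 109.6 and 175 counts in the PND 18 mice at 1% and 100% heptanal and 0 in the remaining 7. Olfr91 had 0, 0 and 3.22 counts in the control mice, 0, 2.15 and 6.67 at 1% heptanal and 8.08, 28.1 and 34.9 at 100% heptanal, so that each 100% mouse was above every other mouse. Olfr126, Olfr119 and Olfr127 had summed counts of 77.8, 75.9 and 55.3, each with its largest value in the PND 18 mouse at 100% heptanal. Olfr128 was the 1 untested member at 0 in all controls and above 0 in all mice of a heptanal group, with 3.29, 12.1 and 7.49 counts at 100% heptanal. Of its counts over all mice 47.1% came from reads shared with other genes. The remaining members with a count ranged from 3 for Olfr94 to 49.8 for Olfr133 in summed counts over the 9 mice. The pseudogenes Olfr104-ps and Olfr105-ps had 31.9 and 19.3.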

How the data were processed

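The pS6-IP libraries of 9 mice were primed with poly-T and amplified by PCR without molecular identifiers. Per the methods and labels, reads were aligned by the authors with Bowtie to mm10 and counted with BEDTools on gene models in which OR genes were replaced by their extended versions, and the versions of these tools are not given in the sources used here. They deposited 1 table without a header per mouse. Its second column holds whole counts, taken as the counts of reads mapped to 1 place, and its last column, 21, holds the estimated counts that the authors obtained after sharing out multi-mapped reads by a rescue scheme. Both roles were read from the values and the methods.

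Estimated counts were rounded and fitted in R 4.3.3 by edgeR 4.0.16 (default filterByExpr and TMM, quasi-likelihood F test, 3 groups, no block), with p-values adjusted by Benjamini-Hochberg over all 14930 genes tested and a threshold of 0.05. SE was taken as the size of the log2 fold change over the root of F. CPM are TMM-normalized over the genes tested. Shares and detection were compared by exact permutation of mice. The same-litter mice deviated together from their group means (9 pairs, correlation 0.155 to 0.73 across genes), so the litter, taken from the ages in the labels and the littermates of the methods, was also fitted as a replicate block. P-values measure the spread between single mice of 3 litters.

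Totals were 5438494 to 9707592 counts per mouse, at which 3 counts equal 0.552 to 0.309 CPM. The 22 members that passed the filter are given by mouse. Of the others, the 5 with the highest summed counts, those at 0, those at 0 in controls alone and the -ps members are named. Olfr108, Olfr113 and Olfr118 are named for their shared reads, and Olfr133 and Olfr94 where a count singled them out. Members were taken by gene name, while this cluster and the lists were chosen with earlier results of these data known. Other settings were unique counts, the block, the likelihood ratio test, DESeq2 1.42.0, scaling by OSN markers or by ORs, no filter, adjustment over ORs, and leaving out each mouse. The litter comparison, the block combined with other settings, and leaving out the PND 22 litter were added after seeing the data. Coordinates and lengths are from GENCODE M21, and coding sequences from RefSeq on GRCm38.p6, aligned with Biopython 1.88. The fits were tested on simulated data.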

Additional observations from a re-analysis of the deposited data

How the results depend on the processing

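With 22 members tested, 3 mice per group and standard errors of 1.56 (log2, median at 100% heptanal) without the block and 0.82 with it, changes of a few fold could not be told from 0 in most members. Levels under about 0.5 CPM in a mouse rest on a few reads. The count of members called at 100% heptanal was 0 in the reported fit and 0 with the replicate block, unique counts, DESeq2, no filter, either other scaling without the block, adjustment over the ORs, each of the 9 mice left out, or the PND 22 litter left out. It was 1 (Olfr90, higher) for edgeR's likelihood ratio test under the replicate block, and likewise with the block and adjustment over the ORs, or the block and DESeq2. It was 2 (Olfr101 and Olfr109, lower) with the block and scaling by OSN markers or by the ORs. These scalings called 2597 and 7675 of the 14930 genes lower, and 18 and 44 of the 426 other ORs. At 1% heptanal the count of members called was 1 (Olfr97, lower) for the likelihood ratio test under the block and 0 otherwise. Between 100% and 1% heptanal it was 5 for the likelihood ratio test under the block and 5 with the block and adjustment over the ORs. It was 7 with the block and OSN markers, 6 with the block and OR scaling and 4 with the block and DESeq2. All were higher at 100%. In the same order these fits called 69, 59, 78, 69 and 64 of the 426 other ORs higher. Of the 14930 genes tested, 190 were called higher with the likelihood ratio test, 103 with OSN markers, 91 with OR scaling and 184 with DESeq2. Leaving out 1 mouse without the block gave 0 calls in each comparison. With the block it gave 1 call, Olfr132 higher at 100% than at 1% without the PND 18 mouse at 1%. That fit called 8 of 479 other ORs higher. The cause of these differences was not tested.

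The number of members called between litters was 11 in the fit with the block. It was 17 with scaling by the ORs (15 lower at PND 22, and Olfr90 and Olfr109 higher). It was 14 with the likelihood ratio test, 12 with unique counts, 16 with OSN markers, and 8 to 13 with 1 mouse left out. Of the 426 other ORs, 236 were called with OR scaling, 234 with the likelihood ratio test and 244 with OSN markers. Of the 14930 genes tested, these fits called 7000, 5449 and 6243 in that order. With unique counts 110 of 391 other ORs and 3726 of 14465 genes were called. With 1 mouse left out 36 to 151 other ORs were. The difference in the members' share of OR counts ran from -0.59 to 1.85 percentage points at 100% heptanal and from -0.368 to 2.07 at 1% when 1 mouse was left out, and turned negative without the PND 22 control or, at 1% only, without the PND 18 mouse at 1% (-0.17). With the whole PND 22 litter left out this difference was 0.359 at 100% and 0.0511 at 1%. Paired within litters its exact sign-flip permutation p was 0.5 at both concentrations, where 0.25 is the smallest possible. The difference in members detected ran from -6.74 to 23.4 percentage points at 100% and from -21.6 to 7.45 at 1%. It turned negative at 100% without the PND 22 control (-6.74) or the PND 18 mouse at 100% (-2.13). At 1% it turned positive without the PND 21 control (2.84), the PND 18 control (1.77) or the PND 22 mouse at 1% (7.45). With the whole PND 22 litter left out it was 7.45 at 100% and -8.51 at 1%. Of the 22 fitted differences, 14 at 100% and 9 at 1% heptanal kept their sign in every setting, and the log2 fold change of Olfr111 at 1%, -3.70, ran from -6.20 to 2.55 with 1 mouse left out and was positive only without the PND 18 control.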
